A study of Saccharomyces cerevisiae with 24 samples.

Results

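The data describe 34 yeast genes whose signal was higher in the respiratory strain V5.TM6*P than in its wild-type parent V5 and, within V5, higher in glucose-poor than in glucose-rich culture. They were picked from the authors' table of processed intensities, which has 7477 rows for 6330 probes. A row was taken if its log2 level averaged at least 0 relative to the median of the array, its mean in V5.TM6*P exceeded its mean in V5 by at least 1, and its mean in V5 at sampling points 5 and 6 exceeded that at points 1 and 2 by at least 0.7. Of the 49 rows past these thresholds, 14 were left out by row number, and the 35 remaining rows stand for 34 genes, because ATP16 entered with both of its spots. The strain difference and the V5 difference between glucose-poor and glucose-rich points therefore chose the genes, and both are given below as a description without a test.

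V5.TM6*P is a derivative of the wine yeast V5 in which the hexose transporter genes HXT1 to HXT7 are deleted and a gene for a chimeric transporter, TM6*, built from the amino-terminal part of Hxt1 and the carboxy-terminal part of Hxt7, is integrated in the genome. Both strains were made prototrophic with URA3 and grown on glucose in aerated bioreactors, and V5 serves as the wild type. RNA was sampled from each strain at 6 points of falling residual glucose: 36.5 g/L in V5.TM6*P and 38.4 g/L in V5 at point 1, 34.8 and 35 g/L at point 2, 26.3 and 25.5 g/L at point 3, 25.1 and 24.4 g/L at point 4, 13.5 and 10.5 g/L at point 5, and 5.6 and 7.4 g/L at point 6, V5.TM6*P being given first in each pair. Each of the 12 RNA samples was hybridised to 2 filter arrays, whose median net intensity per array lay between 11.4 and 22.9. The paper describes 2 independent fermentations per strain and also speaks of 3 sampling points, but the labels do not assign the samples to either. The 6 points are numbered by residual glucose and may mix samples of different cultures, so they need not be the course of 1 culture. The p-values measure only the spread between these samples.

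Levels below are log2 net intensities relative to the median probe of the array, averaged over the 2 arrays of an RNA sample. Zero is the median probe, a difference of 1 is a factor of 2, and levels of different genes cannot be set against each other because each probe binds its own target. Points 1 and 2 are called glucose-rich, points 3 and 4 the middle, and points 5 and 6 glucose-poor.

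Baker's yeast on ample glucose ferments it to ethanol even in air, and keeps many genes of the mitochondria low, a behaviour known as glucose repression. The Hap2/3/4/5 complex, which binds CCAAT, activates genes of respiration when glucose runs down, and the zinc finger protein Mig1 represses a set of genes through GC-rich sites while glucose is plentiful. Pyruvate that enters the mitochondrion is oxidised in the tricarboxylic acid (TCA) cycle, electrons pass through the respiratory chain to oxygen, and the ATP synthase uses the resulting proton gradient.

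By role, 6 belong to the TCA cycle, 1 to the glyoxylate cycle, 6 to the respiratory chain with its assembly and accessory proteins, 5 to the ATP synthase, 4 to other mitochondrial tasks, 2 to hexose uptake and phosphorylation, 3 to respiratory growth and stress, and 3 to other tasks, while 4 are dubious reading frames or transposon sequence. None of the named genes lies on chromosome X.

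The study names Mig1 as a predicted regulator of 7 of the 34 genes, and its supplementary site list gives a longer Mig1 site sequence for 4 of them, SDH4, MPC3, TMA10 and EMI2. These are shown as listed, because the values of those genes are given sample by sample below. The capitals mark the first 6 bases, the GC-rich core, and the lower-case letters are the adjoining bases, mostly A and T. For the other 3 genes, CIT2, CYT1 and KGD4, no such sequence is shown here. The study searched genes it had called induced on these samples, so the site list is not independent of the strain difference.
SDH4: CCCCGGaataaaaaaa
MPC3, first listed: CCCCGCtggtttta
MPC3, second listed: CCCCGCttttattt
EMI2: CCCCGCgtttttt
TMA10: CCCCACaat
The same list gives oligonucleotides with the Hap complex motif CCAAT for 20 of the 34 genes, and in 12 of those 20 genes one of the oligonucleotides was CCAATC. These 12 were SDH3, SDH4, KGD2, KGD4, RIP1, SUE1, MCR1, ATP7, ATP16, ATP20, MPC3 and UPS2. The study's own Hap complex prediction is wider, because it also accepted sites without CCAAT. It takes in CYT1, MRP1, TMA10 and RGI1 as well, which are not in the CCAAT count given here. The share of all yeast promoters that hold a Mig1 core or CCAAT was not computed here, and the listed sites are predictions rather than measured binding. Apart from that list, the paper cites earlier Mig1 binding data for EMI2, MPC3 and CIT2. It also cites an earlier study in which some of these genes, SDH2, SDH3 and SDH4 among them, responded to HAP4 over-expression.

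Across the 34 genes the V5.TM6*P minus V5 difference ran between 0.91 and 2.31 with a median of 1.37 on the log2 scale, and the median over all 6330 probes was −0.05. In V5 the glucose-poor minus glucose-rich difference ran between 0.21 and 1.72 with a median of 0.87, beside −0.02 over all probes. After a normexp correction of the background with an offset of 50 and quantile normalization the median strain difference was 0.78 and the median V5 difference 0.36. The offset is larger than the median net intensity of every array, and adding it before log2 makes log2 differences smaller by construction. The values without that correction, used throughout, come from the scanner files, and 23 of the 34 genes pass all 3 thresholds in them, 11 having a V5 difference under 0.7 and 2 a strain difference under 1. Of all 6330 probes, 46 pass the 3 thresholds in the scanner values. In the authors' table, on which the choice was made, the rows closest to the thresholds were ATP16 with strain differences of 1.02 and 1.04 on its spots just inside and ETR1 with 0.97, GPD1 with 0.96 and ATP5 with 0.96 just outside, SDH3 with a V5 difference of 0.71 and ATP20 with 0.73 just inside, and COX5A, STF2 and SDH1 with 0.69 just outside. ATP15, ATP20, ATP3, CIT2, SUE1 and ZTA1 were spotted as a pair of which 1 spot passed, and the partner spots missed the V5 threshold with 0.40, 0.60, 0.52, 0.47, 0.59 and 0.67.

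**Figure D1:**
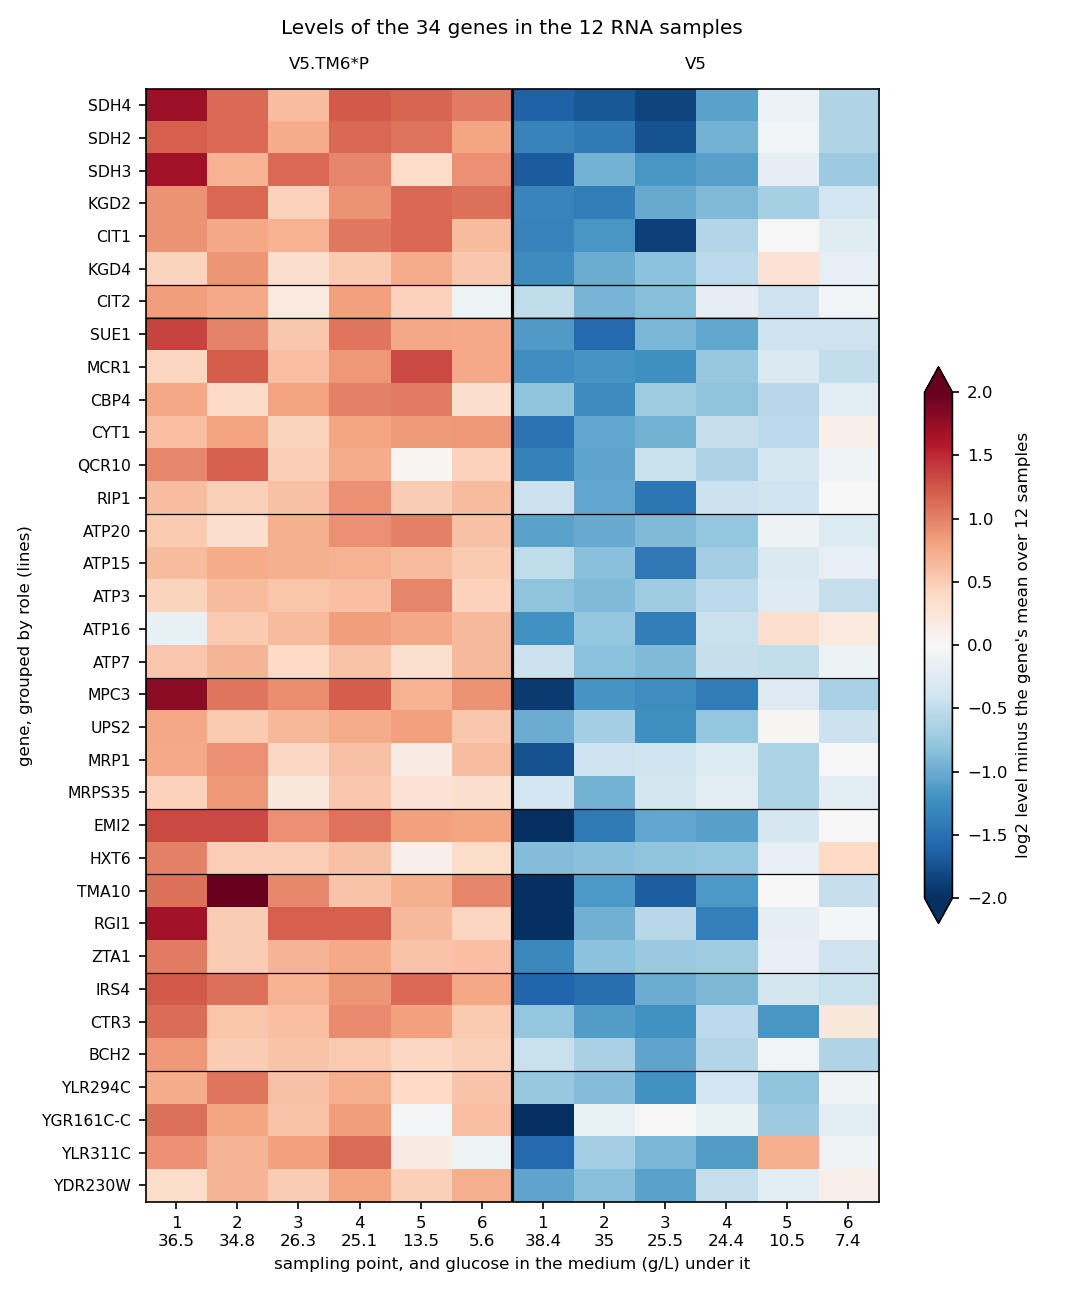
Log2 level of each of the 34 genes (rows, ordered by role) in each RNA sample (columns, V5.TM6*P at points 1 to 6 on the left and V5 at points 1 to 6 on the right, with glucose in g/L), as the difference from the mean of that gene over the 12 samples. The V5.TM6*P columns are above that mean nearly throughout, and in V5 the columns of points 5 and 6 are the closest to it.

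Among the TCA cycle genes of the 34, those of succinate dehydrogenase had the greatest strain differences, and SDH4 the greatest of all 34 genes. This enzyme, complex II, oxidises succinate in the TCA cycle and hands electrons to the respiratory chain, and SDH4 encodes a membrane anchor subunit. SDH4 had levels of 6.30, 5.71, 5.19, 5.80, 5.73 and 5.61 in V5.TM6*P at points 1 to 6, against 2.95, 2.88, 2.74, 3.50, 4.46 and 3.97 in V5. The lowest V5.TM6*P sample was thus above the highest V5 sample, the means differed by 2.31 (5.72 ± 0.36 in V5.TM6*P and 3.42 ± 0.69 in V5, SD, n = 6 each), a factor of 4.95, and the difference was 1.46 at the glucose-poor points and 3.09 at the glucose-rich points. SDH2, the iron-sulphur subunit, had levels of 3.56, 3.49, 3.10, 3.51, 3.45 and 3.15 in V5.TM6*P, against 1.02, 0.94, 0.61, 1.42, 2.31 and 1.76 in V5. Its means differed by 2.04, and V5 points 5 and 6 stood above the other 4 V5 points, as they did for SDH4. SDH3, another anchor subunit, averaged 2.71 ± 0.44 in V5.TM6*P and 0.79 ± 0.49 in V5 (SD, n = 6 each). The remaining subunit, SDH1, has been named above as just outside the V5 threshold, although its strain difference in the authors' table was 2.19. In the scanner values SDH1 had a strain difference of 1.99 and a V5 difference of 0.21.

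The other TCA cycle genes of the 34 had narrower strain differences, although KGD2 with 1.89 was close to SDH3 with 1.92. Outside the 34, MDH1 had 1.96 and FUM1 1.90, and the other named TCA cycle genes except SDH1 were lower. CIT1, the mitochondrial citrate synthase that opens the cycle, averaged 3.78 ± 0.20 in V5.TM6*P and 2.05 ± 0.71 in V5, and in V5 its glucose-poor points exceeded its glucose-rich points by 1.14. KGD2, the E2 component of α-ketoglutarate dehydrogenase, averaged 2.92 ± 0.26 in V5.TM6*P and 1.04 ± 0.38 in V5. KGD4, a small subunit of the same complex, averaged 2.23 ± 0.20 in V5.TM6*P and 1.07 ± 0.57 in V5. KGD2 and KGD4 differed in how the strains stood to each other in glucose-poor culture, where KGD2 kept a strain difference of 1.66, the widest of the 34 genes there, and KGD4 one of 0.58. V5 points 5 and 6 were the highest of the V5 points in all 6 TCA cycle genes and in 25 of the 34 genes, beside 10.7% of all probes, and as the genes were chosen for high values at these points nothing is read from the count. CIT2, the peroxisomal citrate synthase of the glyoxylate cycle, had levels of 4.07, 3.99, 3.42, 4.05, 3.69 and 3.14 in V5.TM6*P, against 2.72, 2.30, 2.38, 3.03, 2.81 and 3.18 in V5. Its strains met at point 6, with V5.TM6*P at 3.14 and V5 at 3.18, and the 2 groups of 6 overlapped.

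Of the respiratory chain, complex III was represented by CYT1 (cytochrome c1), RIP1 (the Rieske iron-sulphur protein) and QCR10 (a small subunit), together with its assembly factor CBP4. QCR10 had levels of 2.22, 2.45, 1.74, 1.99, 1.30 and 1.71 in V5.TM6*P, against −0.10, 0.20, 0.81, 0.64, 0.90 and 1.18 in V5. The strains approached each other in QCR10 from both sides, with a difference of 0.47 at the glucose-poor points and 2.29 at the glucose-rich points. CYT1 averaged 2.93 ± 0.17 in V5.TM6*P and 1.48 ± 0.55 in V5, RIP1 averaged 3.86 ± 0.16 in V5.TM6*P and 2.61 ± 0.52 in V5, and CBP4 averaged 4.09 ± 0.30 in V5.TM6*P and 2.63 ± 0.34 in V5 (SD, n = 6 each). MCR1, the NADH-cytochrome b5 reductase of the mitochondrion, averaged 2.40 ± 0.35 in V5.TM6*P and 0.67 ± 0.41 in V5. SUE1, needed to degrade unstable forms of cytochrome c, had the greatest ratio in this group and averaged 1.99 ± 0.29 in V5.TM6*P and 0.17 ± 0.44 in V5, a factor of 3.54. In these 6 genes, chosen on the strain difference, every V5.TM6*P sample was above every V5 sample, which held for 4.83% of all probes.

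The ATP synthase was represented by parts of its rotor, stalk and membrane sector. ATP15, the ε subunit of the central stalk, had levels of 1.74, 1.85, 1.82, 1.81, 1.75 and 1.63 in V5.TM6*P, against 0.60, 0.28, −0.32, 0.44, 0.82 and 0.95 in V5. V5.TM6*P was nearly level in ATP15 (SD 0.08, the smallest of the 34 genes), and the lowest V5 sample was point 3 rather than a glucose-rich one. ATP16, the δ subunit, averaged 3.23 ± 0.35 in V5.TM6*P and 2.14 ± 0.71 in V5, and had the highest V5 difference of the group, 1.26. It was also the single gene whose glucose-rich V5.TM6*P level was not above its glucose-poor V5 level, by −0.08. ATP3 (γ subunit) averaged 4.26 ± 0.19 in V5.TM6*P and 3.03 ± 0.23 in V5, ATP7 (peripheral stalk) averaged 2.90 ± 0.14 in V5.TM6*P and 1.85 ± 0.28 in V5, and ATP20 (subunit g, involved in dimers of the enzyme) averaged 2.77 ± 0.25 in V5.TM6*P and 1.40 ± 0.40 in V5. The strain difference of the 5 subunits stayed between 1.05 and 1.37, a narrower span than the 1.16 to 2.31 of the TCA cycle genes.

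MPC3, a subunit of the mitochondrial pyruvate carrier, had levels of 3.68, 2.96, 2.82, 3.10, 2.58 and 2.79 in V5.TM6*P, against −0.03, 0.71, 0.65, 0.49, 1.63 and 1.24 in V5. Its strain difference of 2.21 was the second after SDH4, and V5 at point 1 stood lowest. UPS2, an intermembrane space protein of phospholipid metabolism, had levels of 2.56, 2.31, 2.45, 2.52, 2.60 and 2.32 in V5.TM6*P, against 0.79, 1.10, 0.55, 1.01, 1.80 and 1.35 in V5. The 2 mitochondrial ribosomal protein genes were MRP1, with 2.85 ± 0.26 in V5.TM6*P and 1.69 ± 0.61 in V5, and MRPS35, with 1.92 ± 0.23 in V5.TM6*P and 1.00 ± 0.28 in V5. MRPS35 had the smallest strain difference of the 34 genes, 0.91. The V5 difference of MRP1 rested on 1 array. At V5 point 1 its 2 arrays gave 1.74 and −0.69, and the V5 difference was 0.76 with both arrays and 0.16 without the lower one.

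EMI2, a paralogue of the glucokinase gene GLK1, had the greatest V5 difference of the 34 genes, 1.72, a factor of 3.29. Its levels were 3.09, 3.08, 2.67, 2.85, 2.59 and 2.56 in V5.TM6*P, against −0.61, 0.35, 0.73, 0.67, 1.42 and 1.76 in V5. V5 thus covered a range of more than 2 log2 units, and all of it lay below the lowest V5.TM6*P sample. HXT6, a high-affinity hexose transporter gene, had levels of 3.83, 3.31, 3.32, 3.40, 2.92 and 3.19 in V5.TM6*P, against 1.95, 1.98, 2.02, 2.04, 2.66 and 3.22 in V5. At the glucose-poor points the strains differed by 0.12 in it. HXT6 is deleted in V5.TM6*P and is nearly identical to HXT7, whose carboxy-terminal part the TM6* gene carries, so the HXT6 signal in V5.TM6*P cannot be read as HXT6 transcript. The probe was moreover named from its place between the HXT7 and HXT3 probes alone. Among the other transporter genes deleted in V5.TM6*P, the HXT7 probe averaged 8.00 ± 0.15 in V5.TM6*P and 7.09 ± 0.65 in V5, HXT3 averaged 5.53 ± 0.22 in V5.TM6*P and 6.33 ± 0.18 in V5, and HXT2 averaged −1.25 ± 0.54 in V5.TM6*P and 0.11 ± 0.38 in V5 (SD, n = 6 each). The paper expects the probes of HXT1 to HXT7 to cross-react. These signals in V5.TM6*P therefore cannot be read as transcripts of the deleted genes either.

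TMA10, a small ribosome-associated protein, had levels of 1.55, 2.62, 1.41, 1.02, 1.16 and 1.42 in V5.TM6*P, against −1.66, −0.71, −1.20, −0.70, 0.45 and −0.02 in V5. It was the only one of the 34 genes whose mean in V5 lay below the array median, −0.64 ± 0.77. RGI1, a protein needed for energy metabolism in respiratory growth, had levels of 2.98, 1.81, 2.49, 2.50, 1.95 and 1.72 in V5.TM6*P, against −1.27, 0.34, 0.75, −0.07, 1.10 and 1.27 in V5. V5 point 1 was the lowest sample of both genes, and the V5 difference was 1.40 for TMA10 and 1.65 for RGI1. ZTA1, a quinone reductase, averaged 1.85 ± 0.19 in V5.TM6*P and 0.47 ± 0.38 in V5. Outside these roles, IRS4, which acts in phosphoinositide homeostasis, averaged 4.16 ± 0.21 in V5.TM6*P and 2.22 ± 0.51 in V5. CTR3, a copper transporter, averaged 2.87 ± 0.24 in V5.TM6*P and 1.35 ± 0.55 in V5, and BCH2, a member of the exomer complex, averaged 1.48 ± 0.16 in V5.TM6*P and 0.36 ± 0.33 in V5. Of these, IRS4 had a V5 difference of 1.13, whereas CTR3 and BCH2 had 0.47 and 0.21. In CTR3, V5 point 5 at 0.95 was below both glucose-rich points, 1.34 and 1.00, and point 6 was at 2.33. In BCH2, V5 point 6 at 0.31 was below point 1 at 0.48, and point 5 was at 0.87.

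Among the dubious reading frames, YLR311C had levels of 1.89, 1.65, 1.79, 2.08, 1.14 and 0.89 in V5.TM6*P, against −0.58, 0.27, 0.05, −0.15, 1.69 and 0.90 in V5. It was the single member whose strain difference was below 0 at the glucose-poor points, −0.28. YLR294C, which lies beside ATP14, averaged 3.71 ± 0.23 in V5.TM6*P and 2.34 ± 0.40 in V5, and YDR230W, beside the cytochrome oxidase assembly gene COX20, averaged 3.72 ± 0.17 in V5.TM6*P and 2.53 ± 0.48 in V5. Double-stranded PCR products on the filter can also bind transcripts of overlapping neighbours, so these signals may not belong to the reading frames. YGR161C-C, a Ty transposon reading frame with many near-identical copies, averaged 2.69 ± 0.39 in V5.TM6*P and 1.40 ± 1.01 in V5. Its 2 arrays at V5 point 1 gave 1.27 and −2.48, and without the lower one its V5 difference of 0.91 became −0.02.

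**Figure D2:**
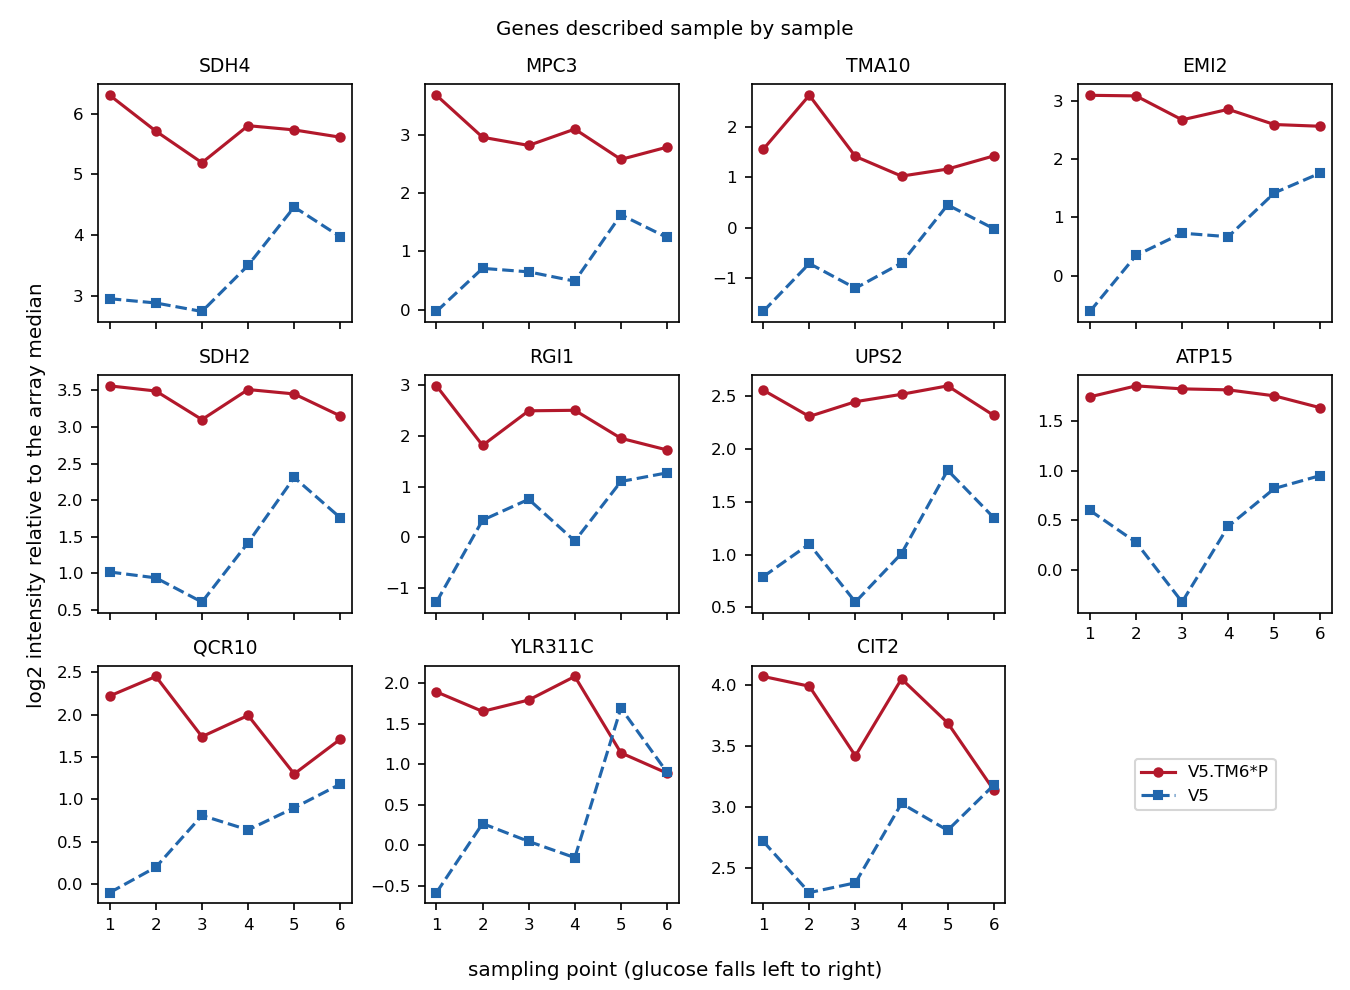
Log2 level (y axis, relative to the array median, with its own range in each panel) at sampling points 1 to 6 (x axis, glucose falling left to right) for SDH4, MPC3, TMA10, EMI2, SDH2, RGI1, UPS2, ATP15, QCR10, YLR311C and CIT2, with a point for each RNA sample of V5.TM6*P (red circles) and of V5 (blue squares). V5.TM6*P lies above V5 at the same point in every panel except for YLR311C at points 5 and 6 and CIT2 at point 6.

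Every V5.TM6*P sample was above every V5 sample in 29 of the 34 genes, beside 4.83% of all probes. The exceptions were CIT2, ATP16, HXT6, YGR161C-C and YLR311C. Because the strain difference chose the genes, nothing is read from this count, and the same holds for the V5 points 5 and 6, which both exceeded points 1 and 2 in 27 genes, beside 20.6% of all probes. The genes in which they did not were ATP7, MRP1, MRPS35, CTR3, BCH2, YLR294C and YGR161C-C. The separate pairs of V5 samples, which make up the V5 difference that chose the genes, are given as a description. Point 6 exceeded point 1 in 33 of 34 genes with a median of 0.96 (47.9% of all probes), point 6 exceeded point 2 in 33 with a median of 0.82 (51.1% of all probes), point 5 exceeded point 2 in 31 with a median of 0.70 (49.5% of all probes), and point 5 exceeded point 1 in 30 with a median of 0.99 (46.2% of all probes). V5 points 2, 3 and 5 carried the genes of chromosome X at 0.14, 0.11 and 0.23 above the mean of V5 and points 1, 4 and 6 carried them at −0.10, −0.07 and −0.14 (medians of 96 named genes). Named genes off chromosome X stood at −0.07, −0.08 and 0.05 at points 2, 3 and 5, and at 0.03, 0.07 and 0.11 at points 1, 4 and 6. The part of the chromosome X split in the V5 values of the 34 genes was not tested.

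In all 34 genes the strain difference was smaller at the glucose-poor than at the glucose-rich points, with medians of 0.90 and 1.88. This narrowing is the V5 difference that chose the genes less the corresponding difference in V5.TM6*P, which was below 0 in 23 genes and had a median of −0.21 with a range of −0.83 to 0.51. The strain difference at the glucose-poor points was above 0 in 33 of 34 genes, beside 46.3% of all probes, and at least 1 in 14. The glucose-rich V5.TM6*P points averaged above the glucose-poor V5 points in 33 of the 34 genes, beside 47.8% of all probes, by a median of 1.07. Both counts use samples on which the genes were chosen and are a description.

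**Figure D3:**
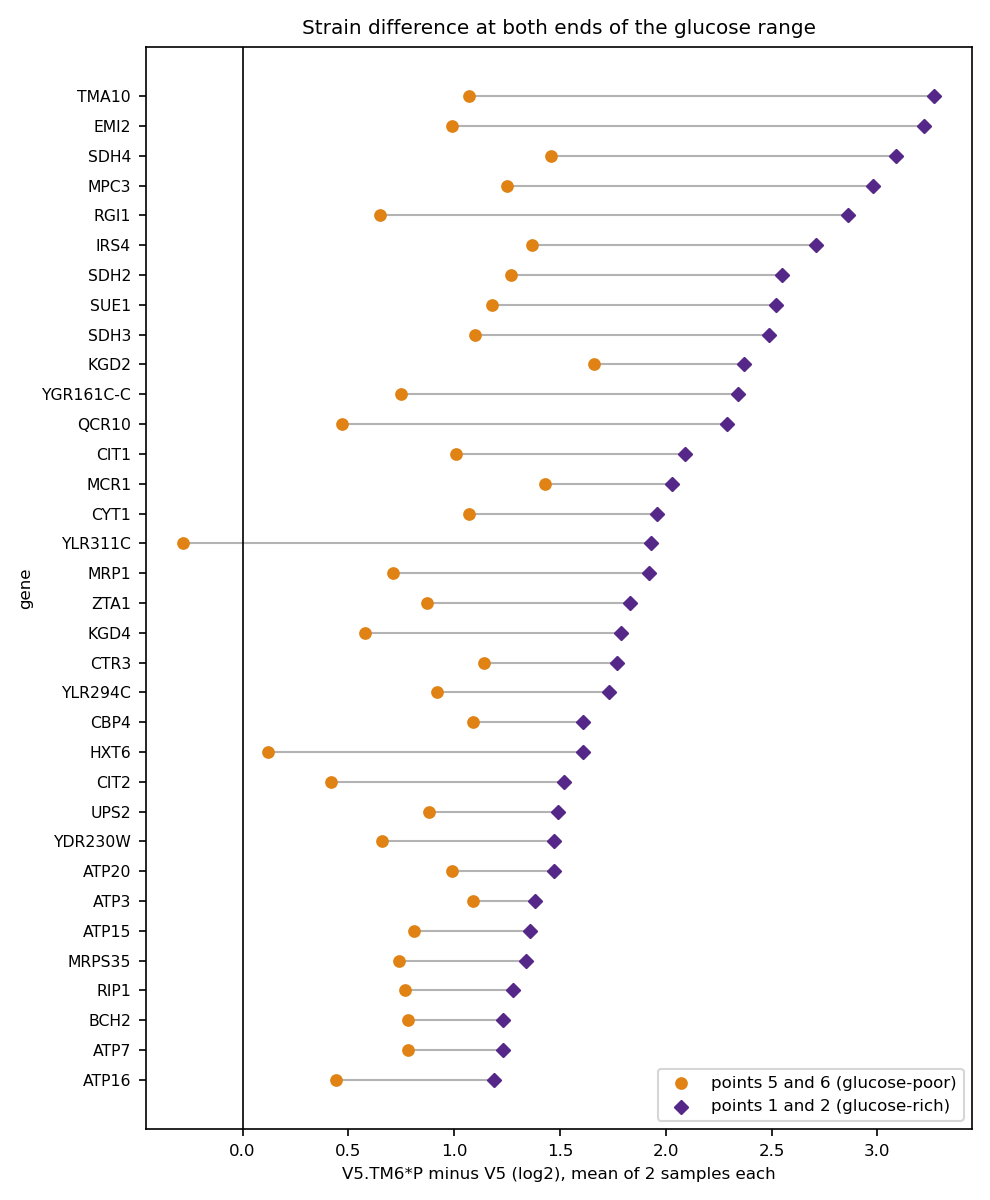
V5.TM6*P minus V5 log2 difference (x axis) of each of the 34 genes (y axis) at the glucose-poor points 5 and 6 (circles) and the glucose-rich points 1 and 2 (diamonds), each from the means of 2 samples per strain. The circle lies left of the diamond in every gene, and 1 circle, that of YLR311C, lies below 0.

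The choice of the genes made no use of how V5.TM6*P moved with glucose, so this was tested. A line on residual glucose was fitted within each strain across all 6330 probes with limma, and the slope in V5.TM6*P was set against 0. None of the 34 genes passed an adjusted p of 0.05 (limma, Benjamini-Hochberg), beside 0% of all probes. At an unadjusted p under 0.05, 2 of the 34 genes had a higher level in more glucose, beside 3.67% of all probes, and 0 had a lower one, beside 2.31%. The slope was above 0 in 26 of the 34 genes, beside 51.5% of all probes, and its median was 0.08 log2 units per 10 g/L with a range of −0.17 to 0.32. The median standard error of these slopes was 0.11 per 10 g/L. By image name, 3 arrays of V5.TM6*P (both of point 1 and 1 of point 2) come from another print lot than the other 21, and without them 0 of the 34 genes passed the adjusted test (limma) and 22 had a slope above 0.

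QCR10 had the lowest p, with a slope of 0.27 ± 0.10 (SE) per 10 g/L (limma p = 0.0208, adjusted p = 0.704). CIT2 followed with 0.25 ± 0.11 (p = 0.0488, adjusted p = 0.833, limma), then YLR311C with 0.32 ± 0.15 (p = 0.0588, adjusted p = 0.848, limma) and EMI2 with 0.18 ± 0.09 (p = 0.0789, adjusted p = 0.879, limma). In these 4 genes, which were picked by p and all had a positive slope, the V5.TM6*P level was lowest at point 5 or 6. No slope passed the adjusted test, and no direction is read from genes picked in this way. ATP16 had the most negative slope, −0.17, with a 95% interval of −0.48 to 0.13. An interval this wide leaves changes of either sign within the data for most of the genes.

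**Figure D4:**
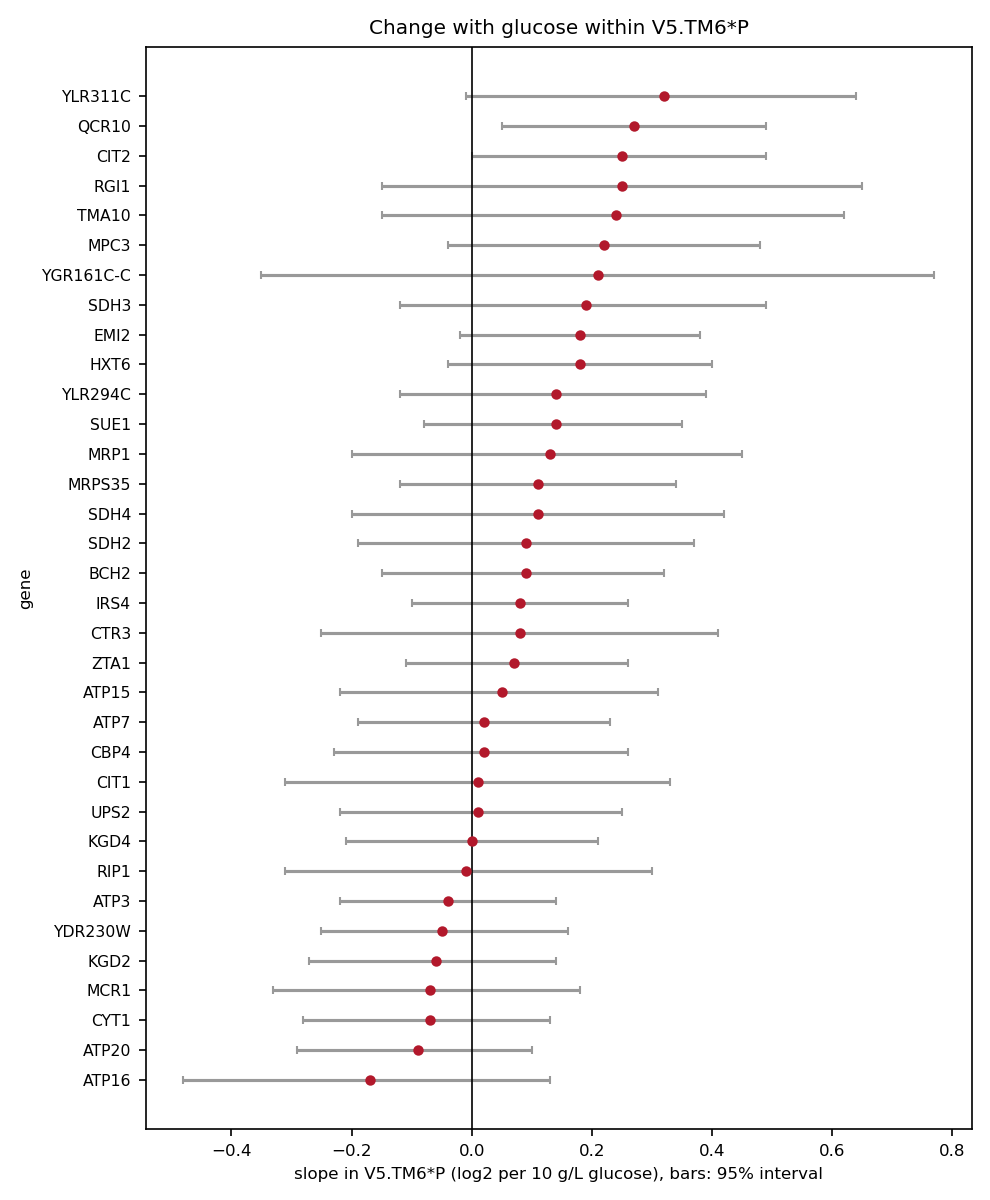
Slope of the log2 level on residual glucose within V5.TM6*P (x axis, log2 units per 10 g/L, a positive slope meaning a higher level in more glucose) for each of the 34 genes (y axis), with 95% intervals from limma. Slopes run between −0.17 for ATP16 and 0.32 for YLR311C, and the intervals of QCR10 and CIT2 are the ones that lie above 0.

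The 34 genes, with their median slope of 0.08 per 10 g/L, can be set beside 90 genes that met the same strain threshold in the authors' table but stayed under the V5 threshold, whose median slope in V5.TM6*P was −0.01 with 42 of 90 above 0. The median strain difference at the glucose-poor points was 0.90 for the 34 genes and 0.96 for the 90. The difference between these sets was not tested.

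The second measure tested is the place of the middle points against the ends. The V5 middle points entered the choice through the V5 mean, but neither that mean nor the V5 difference fixes their place against the ends. Points 3 and 4 were therefore set against the mean of points 1, 2, 5 and 6. A value below 0 means that the middle lay closer to the glucose-rich than to the glucose-poor level. The V5 middle points also had slightly more glucose than the average of the ends, so a straight line on glucose would by itself put the value a little below 0. In V5 no gene of the 34 passed an adjusted p of 0.05 (limma), beside 0.0158% of all probes, which is 1 probe without a gene name. At an unadjusted p under 0.05, 1 of the 34 genes was below 0, beside 1.91% of all probes, and 0 were above, beside 1.58%. The value was below 0 in 28 of the 34 genes, beside 50.7% of all probes, with a median of −0.18, but without V5 point 3 it was above 0 in 16 genes and without V5 point 6 in 13. ATP15 had the lowest p (−0.60 ± 0.24, SE, limma p = 0.0357, adjusted p = 0.999), followed by UPS2 (−0.48 ± 0.23, p = 0.0722, adjusted p = 0.999, limma) and YLR311C (−0.62 ± 0.31, p = 0.0785, adjusted p = 0.999, limma).

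In levels, the V5 middle exceeded the glucose-rich end by a median of 0.21 with a range of −0.38 to 1.32, whereas the glucose-poor end exceeded it by 0.87. The middle lay between the ends in 27 genes. It lay at or below the glucose-rich end in RIP1, ATP15, ATP7, UPS2 and BCH2, and at or above the glucose-poor end in MRPS35 and YGR161C-C.

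**Figure D5:**
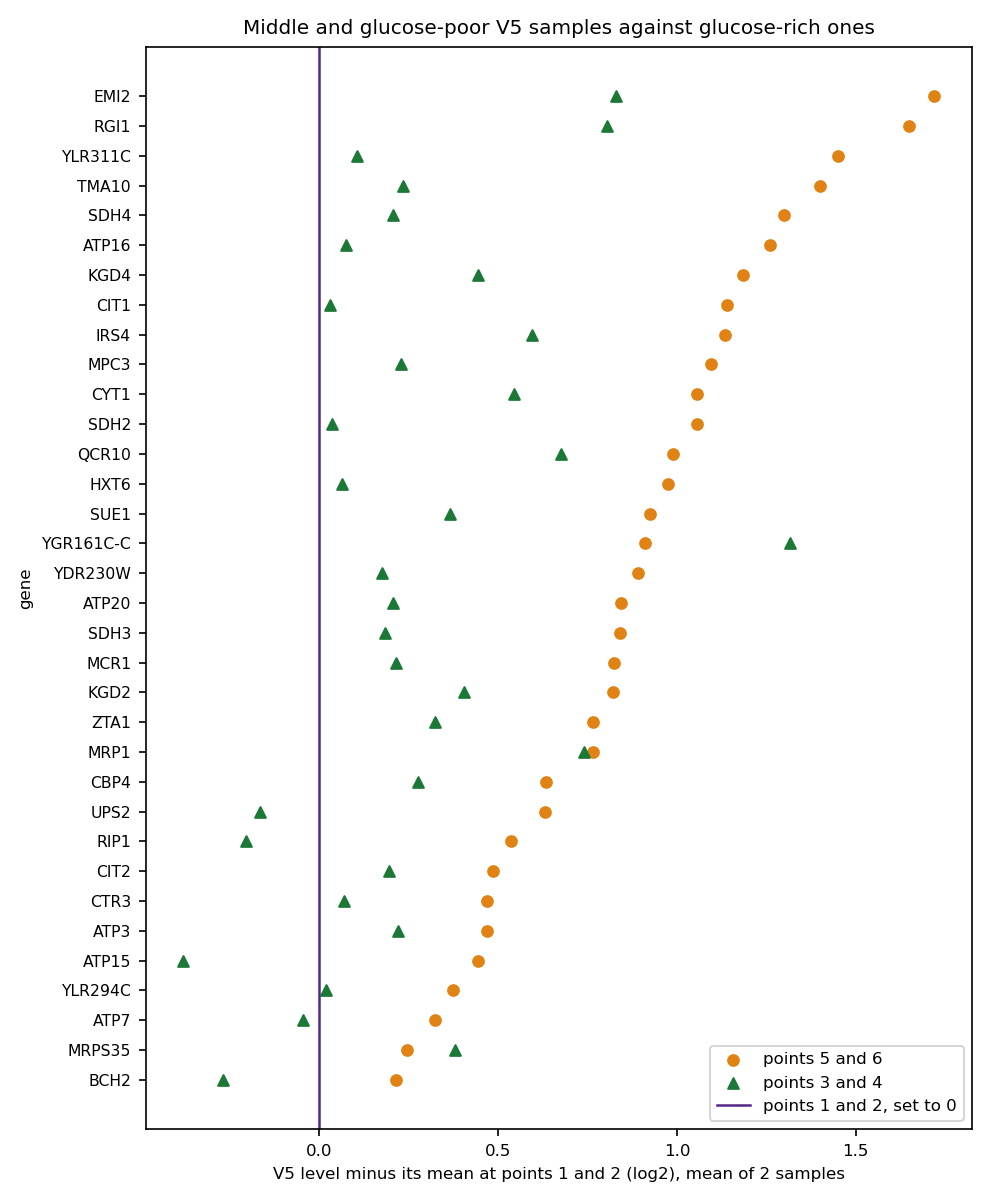
V5 levels of the 34 genes (y axis) as the log2 difference from the glucose-rich points 1 and 2 (x axis), for the glucose-poor points 5 and 6 (circles) and the middle points 3 and 4 (triangles), each the mean of 2 samples. Most triangles lie nearer to 0 than to their circle, and 5 of them lie at or below 0.

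The same contrast in V5.TM6*P gave no gene of the 34 past an adjusted p of 0.05 (limma), beside 0% of all probes. At an unadjusted p under 0.05 there were 0 below, beside 2.01% of all probes, and 0 above, beside 1.88%, and the lowest p of the 34 was 0.0919 for KGD2 (limma, adjusted p = 0.997). The value was above 0 in 16 of the 34 genes, beside 55.9% of all probes, but in 6 with the authors' table, in 8 with normexp and quantile normalization, in 25 without V5.TM6*P point 3 and in 10 without V5.TM6*P point 4.

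The pathways around these genes show which of their neighbours were left outside. Of 17 TCA cycle genes listed, 15 could be named on the array and 5 are among the 34 (KGD4 was not on this list), and the 15 had a median strain difference of 1.73 and a median V5 difference of 0.56. Of 23 genes of the electron transport chain, 18 were named, 3 are among the 34 and the medians were 1.02 and 0.49. Of 17 ATP synthase genes, 15 were named, 5 are among the 34 and the medians were 1.15 and 0.47. Subunits of one enzyme therefore stood on both sides of the thresholds, as ATP5 did with a strain difference of 0.95 and a V5 difference of 0.88, and KGD1, the E1 component beside KGD2, with 1.24 and 0.51. By contrast, 11 named genes of fermentation and glycolysis, none of them among the 34, had a median strain difference of −0.74 and a median V5 difference of −0.51. In 3 lists close to these, 8 of 9 glyoxylate cycle and gluconeogenesis genes were named and 1 is among the 34, 10 of 13 mitochondrial carriers and outer membrane genes were named and 1 is among the 34, and 10 of 20 genes of hexose transport and phosphorylation were named and 2 are among the 34. Absence from the 34 does not mean small differences, because rows were also left out by row number. Strain and V5 differences were 2.90 and 3.46 for HXK1, 1.97 and 2.34 for GLK1, 2.90 and 1.10 for ODC1, and 2.81 and 1.06 for OM45. None of these genes is among the 34. No named gene of these lists passed an adjusted p of 0.05 in any of the 3 tests (limma), and at an unadjusted p under 0.05 the slope in V5.TM6*P was above 0 for 1 gene in each list but those of the TCA cycle, with 0, and the ATP synthase, with 0 above and 1 below. In the middle of V5, 1 ATP synthase gene, ATP15, was below 0 at that threshold and 0 of the other lists were, and in the middle of V5.TM6*P there were 0. The remaining lists had few named genes: 2 of 9 for carnitine and fatty acid oxidation, 3 of 16 for glycogen and trehalose, 6 of 16 stress proteins and 5 of 20 regulators. Of these only TMA10, a stress protein, is among the 34. The stress proteins had a median strain difference of 0.99, with CTT1 at −0.93 and GRE1 at −0.90. In the middle of V5, 1 regulator was above 0 at an unadjusted p under 0.05 (limma). Names could be given mainly to genes that the study had tabulated as changed on these same samples, so the lists are no independent evidence of direction.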

How the data were processed

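RNA of 12 samples was amplified and reverse-transcribed into targets labelled with radioactive phosphorus. These were hybridised to 24 filter arrays of 9600 spots. The deposited scanner files (ImaGene 5.6.2) give for every spot the median intensity of its pixels and of the surrounding background, on a linear scale. The authors also deposited a table of background-subtracted intensity values whose scaling is not given in the sources used here. This table chose the genes. For all other values the background was subtracted from the spot intensity, values under 0.1 were set to 0.1 (1.49% of them), log2 was taken, paired spots (1147 probes) were averaged, levels were centred on the median probe of each array, and both arrays of a sample were averaged. The number of arrays limits the precision.

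Probes carry no gene names. Names came from matching the values computed from the authors' table to the tabulated genes of the study and from print order, which gave 916 named probes (711 on unrounded values, 204 on rounded values and place, 1 by place alone). Symbols follow RefSeq. Tests used limma 3.58.1 in R 4.3.3 on all 12 samples with Benjamini-Hochberg adjustment over 6330 probes, after a check on simulated data. Values in every sample are given for genes ranking 1 to 5 in the strain difference and in the V5 difference, 1 to 4 by p of the slope and 1 to 3 by p of the V5 middle, and for HXT6 and, by array, for MRP1 and YGR161C-C, which were added after their values were seen. The genes and gene lists were chosen with earlier results of these data known. A planned search of promoters for motifs was not run, since no promoter sequences were used here.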

Additional observations from a re-analysis of the deposited data

Results flagged for a closer look

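In each strain the highest and lowest of the 6 samples were set against the rest for all 34 genes, which makes 68 groups of 6 samples. A sample was taken as apart when its gap to the nearest other sample, divided by the range of the group, exceeded the 95% critical value of Dixon's test. This happened in 7 groups, and chance gives about 1 in 20.

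In V5, both cases were low values at point 1. YGR161C-C was at −0.60 there, against 1.32 to 2.04 at the other points (ratio 0.730), and its 2 arrays gave 1.27 and −2.48. MRP1 was at 0.53, against 1.63 to 2.28 (ratio 0.626), and its 2 arrays gave 1.74 and −0.69. Both genes passed the V5 threshold through this sample. In the authors' table the same arrays gave 2.01 and −2.18 for YGR161C-C and 1.69 and −0.33 for MRP1.

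The other 5 cases were in V5.TM6*P. ATP16 was low at point 1 with 2.55, against 3.22 to 3.53 (ratio 0.682). BCH2 was high at point 1 with 1.79, against 1.33 to 1.49 (ratio 0.660). Both arrays of point 1 carry in their image names another print lot than most arrays, as does 1 of the 2 arrays of point 2, and the part of the lot in these values was not tested. TMA10 was high at point 2 with 2.62, against 1.02 to 1.55 (ratio 0.667), and its arrays there gave 2.19 and 3.05. RIP1 was high at point 4 with 4.15, against 3.71 to 3.87 (ratio 0.636). ATP3 was high at point 5 with 4.62, against 4.09 to 4.27 (ratio 0.668), with 4.67 and 4.58 on its arrays.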

How the results depend on the processing

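No gene of the 34 passed an adjusted p of 0.05 in any of the 3 tests under any alternative that was run, leaving out each sample included. Over all probes, the count called for the slope in V5.TM6*P was 0, and 2 with normexp and quantile normalization, 3 with all 24 arrays and duplicateCorrelation, and 1 each with probes above the array median, with a variance trend, on log2 of glucose and as points 1 and 2 minus points 5 and 6; leaving out single samples gave 0 to 0. For the middle of V5 the count was 1, and 0 with the authors' table, a floor of 1, normexp and quantile normalization, all 24 arrays, without the 3 arrays of the other print lot, with probes above the array median, a variance trend or V5 alone. Leaving out single samples gave 0 to 14, with 14 without V5 point 4 and 8 without V5 point 3. For the middle of V5.TM6*P the count was 0, and 3 without the other print lot, and leaving out single samples gave 0 to 5, with 5 without V5.TM6*P point 4, 4 without point 6 and 1 without point 3. With normexp and quantile normalization the median strain difference of the 34 genes was 0.78 (1.37 otherwise) and the median V5 difference 0.36 (0.87 otherwise). The normexp correction adds an offset of 50 before log2, which makes log2 differences smaller by construction. Its share in these medians and the cause of the other shifts were not tested. The count of genes with all V5.TM6*P samples above all V5 samples, an alternative chosen after seeing the data, stayed between 29 and 31, and 21 to 27 genes had a slope above 0 in V5.TM6*P. The adjusted p of the slope ran between 0.299 and 0.999 for QCR10, 0.466 and 0.934 for CIT2, 0.345 and 0.999 for EMI2 and 0.569 and 0.983 for YLR311C, and that of the V5 middle between 0.32 and 1 for ATP15, 0.691 and 1 for UPS2 and 0.947 and 1 for YLR311C. The 3 arrays of the other print lot are all of V5.TM6*P, although the sample titles give 1 lot for every array, and leaving them out removes point 1. The arrays of a sample differed by a median of 0.13 to 0.58 over the 34 genes, which limits differences within a strain. No paired analysis was possible because each test lies within 1 strain and the labels tie no samples to a shared culture.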
